A study of Mus musculus with 56 samples.

Results

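The genes described here encode the scaffold of perineuronal nets and of the looser matrix around brain cells: the lecticans Acan, Bcan, Ncan and Vcan, the link proteins Hapln1 and Hapln4, the tenascins Tnr and Tnc, and the cell surface partners Ptprz1 and Sdc4. They were chosen by name. A gene counted as measured when at least 6 of the 56 arrays gave a probe annotated to it a detection p-value (its signal against negative control probes) under 0.05. By this rule 7 of the 10 genes were measured (Acan, Bcan, Ncan, Hapln1, Hapln4, Tnc and Sdc4), out of 9893 genes measured in all. Vcan and Tnr each had 1 probe, which was not above background on any of the 56 arrays (0 of 56), and no probe of the annotation used carried the name Ptprz1.

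Perineuronal nets are condensed sheaths of extracellular matrix around the cell bodies and proximal dendrites of certain neurons, most of all fast-spiking interneurons that make parvalbumin. Hyaluronan forms the backbone, lecticans (chondroitin sulfate proteoglycans) bind it along its length, link proteins lock that bond, and tenascins tie the far ends of the lecticans together. In the hippocampus the nets are known for stabilising inhibitory synapses, and the diffuse matrix between cells, rich in brevican and neurocan, comes largely from glia and from neurons.

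RNA came from the hippocampus of male NMRI mice, 1 mouse per Illumina MouseRef-8 array, in 4 groups. Naive mice given vehicle (n = 6) had no epilepsy, whereas the other 3 groups had been made epileptic by status epilepticus induced with pilocarpine after N-methylscopolamine bromide and ended with diazepam, and then received by daily gavage vehicle (n = 17), PLX3397 at 3 mg/kg (n = 18) or PLX3397 at 30 mg/kg (n = 15). PLX3397 is an inhibitor of Csf1R, the receptor kinase of microglia and macrophages. The sample records give 7 days of dosing and the study's methods 14 days for the arrays, and the age of the mice was not given in the sources used here. No naive mice received PLX3397, so its action without epilepsy was not measured.

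Median signal per array ranged from 109.2 to 150.8 and the share of probes detected from 44.3% to 49.8%, with the groups overlapping in both. Of 3 measured genes that mark hippocampal fields, Fibcd1 and Wfs1 (CA1) were lower in epileptic mice given vehicle than in naive mice and Prox1 (dentate granule cells) was not called. Fibcd1 rose at both doses against epileptic vehicle, Wfs1 rose at 3 mg/kg, and Prox1 was higher than in naive mice at both doses. The sample numbers fall into an earlier and a later run, and the groups were spread unevenly over them: 3 naive, 11 vehicle, 8 at 3 mg/kg and 2 at 30 mg/kg in the earlier, and 3, 6, 10 and 13 in the later. What the numbers stand for was not given, so several results are also given within each run. One epileptic mouse given vehicle (replicate 6) and one given 3 mg/kg (replicate 18) stood apart from their groups over all probes, with median correlations to the rest of the group of 0.978 and 0.9801 against group medians of 0.991 and 0.9905.

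The promoter sequences of 4 measured genes are shown here because Tnc and Ncan rose and fell together from mouse to mouse and Bcan and Sdc4 differed between groups. They are RefSeq sequences of build GRCm38.p6, from 250 bases before to 50 bases after the annotated start, written 5′ to 3′ on the gene's own strand. The table used held an entry for 9 of the 10 genes, and it had 2 overlapping entries for Tnc, of which the downstream one is shown. Capitals mark, on either strand, the GC box GGGCGG, any CCAAT box and any TATA box spelled TATAAA.
Tnc, chr4:64046887-64047186, minus strand: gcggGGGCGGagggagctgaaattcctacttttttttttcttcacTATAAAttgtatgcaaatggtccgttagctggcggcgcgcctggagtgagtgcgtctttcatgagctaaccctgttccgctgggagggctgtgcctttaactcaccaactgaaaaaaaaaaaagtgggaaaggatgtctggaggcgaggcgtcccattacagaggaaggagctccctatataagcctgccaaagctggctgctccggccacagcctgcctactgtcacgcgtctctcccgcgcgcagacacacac
Ncan, chr8:70120795-70121094, minus strand: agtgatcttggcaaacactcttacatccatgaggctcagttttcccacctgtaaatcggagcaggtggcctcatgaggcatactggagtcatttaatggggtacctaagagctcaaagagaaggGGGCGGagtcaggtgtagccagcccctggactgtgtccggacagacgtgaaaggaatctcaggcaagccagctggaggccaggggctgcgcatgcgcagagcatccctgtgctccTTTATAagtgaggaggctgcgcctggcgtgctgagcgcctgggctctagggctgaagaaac
Bcan, chr3:88000307-88000606, minus strand: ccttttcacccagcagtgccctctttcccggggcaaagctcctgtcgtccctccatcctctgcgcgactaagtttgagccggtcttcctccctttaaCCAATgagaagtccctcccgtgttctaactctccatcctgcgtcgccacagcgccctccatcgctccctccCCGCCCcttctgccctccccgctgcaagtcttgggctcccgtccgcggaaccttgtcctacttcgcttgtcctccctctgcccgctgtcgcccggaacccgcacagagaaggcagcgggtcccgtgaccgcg
Sdc4, chr2:164443139-164443438, minus strand: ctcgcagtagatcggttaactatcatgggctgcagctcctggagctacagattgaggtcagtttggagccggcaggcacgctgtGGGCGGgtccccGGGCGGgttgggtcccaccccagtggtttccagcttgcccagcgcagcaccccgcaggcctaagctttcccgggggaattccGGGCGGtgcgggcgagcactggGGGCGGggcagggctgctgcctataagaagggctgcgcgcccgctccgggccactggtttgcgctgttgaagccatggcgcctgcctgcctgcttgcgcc
GGGCGG was present in all 4 windows and in 35.7% of the 32851 promoters of the table, and Sdc4 held 4 copies. TATAAA was found in the Tnc and Ncan windows (13.6% of all promoters) and CCAAT in that of Bcan (37.4%). The first base of TATAAA lay at -205 from the start in Tnc and, on the other strand, at -11 in Ncan. Neither was taken as a working TATA box. Only that exact spelling was searched, so a TATA box spelled otherwise was not looked for in any of the windows. The letters TGANTCA (AP-1), TGACG (cyclic AMP response element) and TTCNNNGAA (STAT), which 7.81%, 20.8% and 8.3% of promoters held on either strand, were not in these 4 windows. These matches describe the windows only.

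The first comparison, epileptic against naive mice given vehicle, asked how the epileptic hippocampus differs from the healthy one. Hapln4 and Bcan fell (Bcan on 1 of its 2 measured probes) and Sdc4 rose, while Acan, Ncan, Hapln1 and Tnc did not pass the test. That is 1 gene higher and 2 lower of 7 measured, in a comparison in which 49% of all genes were called (22.6% higher and 26.5% lower), so the share called among these genes was close to that of the array as a whole. The median log2 difference of the 7 genes was -0.02, beside -0.005 for all genes. With arrays scaled to their median in place of quantile normalisation, 1291 genes were higher and 3630 lower in place of 2232 and 2619, and Sdc4 was no longer called (0.3, adjusted p = 0.0744) while Ncan was (-0.33, adjusted p = 0.0299). All tests of differences were limma fits over the 4 groups, with p adjusted by Benjamini-Hochberg over 9893 genes and called under 0.05.

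The second comparison asked what PLX3397 changed in epileptic mice. At 30 mg/kg against epileptic vehicle, Hapln4 rose and Sdc4 and Bcan fell, 1 gene higher and 2 lower of 7, where 32% of all genes were called (16.3% higher, 15.7% lower). The lower dose, 3 mg/kg, gave a rise of Hapln4 and a fall of Sdc4, 1 each of 7, where 35.5% were called (18.5% higher, 16.9% lower). Over the 7 genes the median difference was -0.08 with the higher dose (all genes 0.004) and -0.03 with the lower (all genes 0.006). Each of the 7 overlapped between treated and vehicle mice, as did all but 0.0809% of genes at 30 mg/kg and 0.111% at 3 mg/kg. Median scaling gave 2023 genes higher and 818 lower at 30 mg/kg (1614 and 1549 as reported) and 2939 and 768 at 3 mg/kg (1835 and 1676), and with it Bcan at 30 mg/kg (-0.09, adjusted p = 0.241) and Sdc4 at 3 mg/kg (-0.11, adjusted p = 0.415) were no longer called. Hapln4 and Sdc4 thus moved opposite to their change in epilepsy. Bcan was lower at the higher dose on both of its measured probes, whereas its fall in epilepsy was called on only 1 of the 2. These 3 comparisons share the epileptic mice given vehicle, so their values are not independent of each other.

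**Figure D1:**
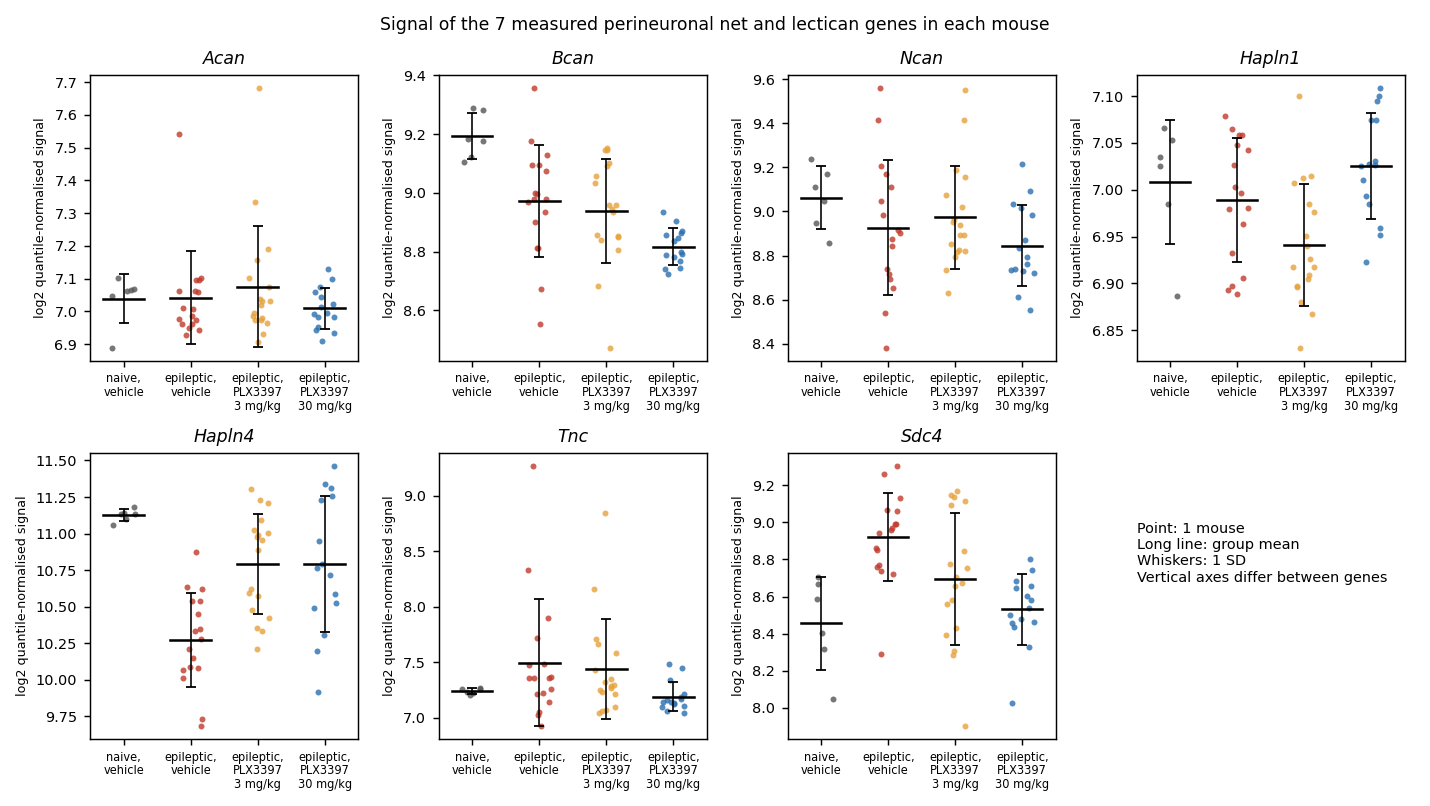
Log2 quantile-normalised signal (vertical axis, scale differs between panels) of the 7 measured genes in each of the 56 mice, by group (horizontal axis), with lines at group means and whiskers of 1 SD. Hapln4 lies between 11.06 and 11.18 in the naive mice and at 10.87 or below in every epileptic mouse given vehicle, and Tnc spreads up to 9.27 and 8.85 in single mice.

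**Figure D2:**
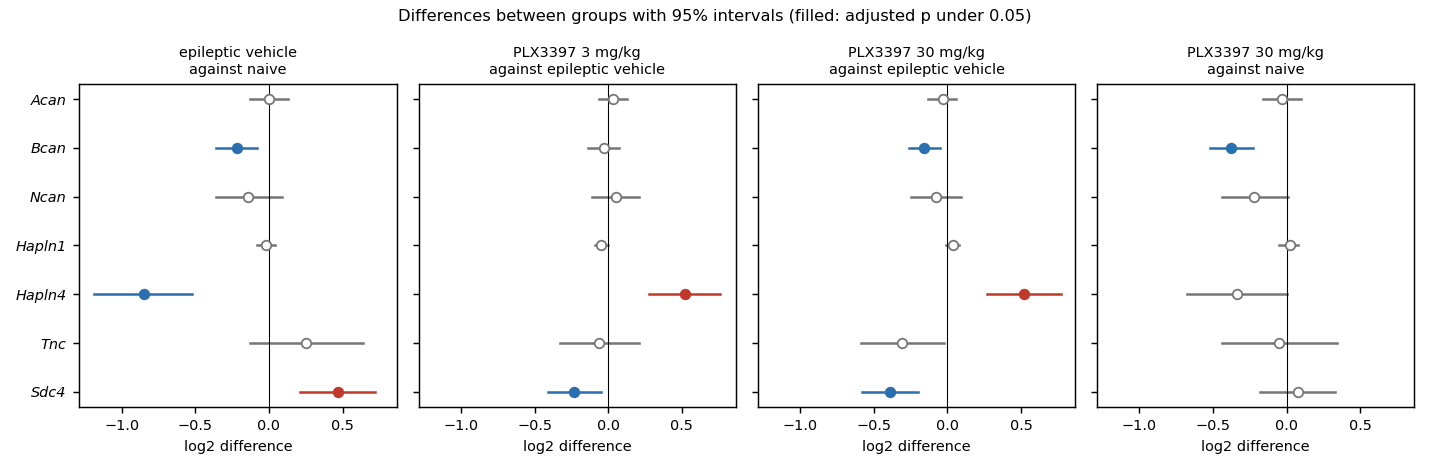
Log2 difference (horizontal axis) of each measured gene in 4 comparisons, as points with 95% confidence intervals, red for higher, blue for lower and open grey for not called. Hapln4 and Sdc4 change side between the epilepsy panel and the 2 drug panels, and Bcan is on the lower side in 3 of the 4 as a called gene.

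Hapln4 encodes a link protein best known from nets of the brainstem and cerebellum, which joins lecticans to hyaluronan. Its log2 signal (lowest, median and highest mouse) was 11.06, 11.13 and 11.18 in naive mice. It was 9.68, 10.28 and 10.87 in epileptic mice given vehicle, 10.21, 10.92 and 11.3 at 3 mg/kg, and 9.91, 10.76 and 11.46 at 30 mg/kg. All 17 epileptic mice given vehicle were below the lowest naive mouse, a separation of groups that 15.1% of all genes showed, and the treated mice spread from the vehicle range to above the naive range, with 3 of 18 and 5 of 15 above the highest naive mouse. The difference in epilepsy was -0.85 (SE 0.166, adjusted p = 1.95e-05), 1.81-fold lower. In a whole-tissue sample, fewer cells of a type and less RNA per cell cannot be told apart.

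With PLX3397 Hapln4 was 0.52 higher than in epileptic vehicle at both doses (SE 0.124, adjusted p = 0.000892 at 30 mg/kg, SE 0.118, adjusted p = 0.000345 at 3 mg/kg), each 1.43-fold. Above the vehicle median were 17 of 18 mice at 3 mg/kg and 13 of 15 at 30 mg/kg. The doses did not differ by test, with a 95% interval for 30 minus 3 mg/kg from -0.25 to 0.24. Against naive mice the treated groups remained at -0.34 (adjusted p = 0.128) and -0.33 (adjusted p = 0.132) for 30 and 3 mg/kg, which did not pass the test. Within the earlier and later runs the epilepsy difference was -0.85 and -0.88, that of 30 mg/kg 0.74 (2 treated mice) and 0.53, and that of 3 mg/kg 0.55 and 0.53.

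Several markers of interneurons and neurons moved with Hapln4, and others did not. Over all genes, 26.5% fell in epilepsy. Against epileptic vehicle 16.3% rose and 15.7% fell at 30 mg/kg, and 18.5% rose and 16.9% fell at 3 mg/kg. Of 6 measured interneuron markers 4 fell in epilepsy (Slc32a1, Kcnc1, Gad1 and Sst) and the same 4 rose at 30 and at 3 mg/kg, and the mean log2 level of the list ran from 10.39 to 10.7 in naive mice, 9.83 to 10.22 in epileptic vehicle, 10.02 to 10.42 at 3 mg/kg and 10.03 to 10.41 at 30 mg/kg. Pvalb, parvalbumin itself, was not called in epilepsy (-0.14) and was lower at 30 (-0.16) and 3 mg/kg (-0.17). Of 6 neuronal markers 3 fell in epilepsy (Syt1, Rbfox3 and Slc17a7). At either dose 3 of the 6 rose, Syt1 and Rbfox3 among them, and 1 fell (Camk2a, -0.3 at 30 and -0.34 at 3 mg/kg). The list spanned 11.46 to 11.65 in naive mice, 10.94 to 11.35 in epileptic vehicle, 11.04 to 11.51 at 3 mg/kg and 11.05 to 11.58 at 30 mg/kg. The CA1 markers followed it too, Fibcd1 with -1.73 in epilepsy, 0.6 at 30 mg/kg and 0.77 at 3 mg/kg, all called, and Wfs1 with -0.8 (called), 0.2 (adjusted p = 0.198) and 0.54 (called). The part of these cells in the Hapln4 result was not tested. The 3 genes most like Hapln4 from mouse to mouse, after centring each gene on its group means, were Cacna2d3 (Pearson r = 0.84), Amph (0.81) and Tomm34 (0.81) over 56 mice. The first is a calcium channel subunit, the second a synaptic vesicle endocytosis protein and the third a mitochondrial import factor. These r values are descriptions over mice measured on the same arrays.

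Hapln1, the link protein of nets in cortex and hippocampus, was near background: its probe was detected on 6 of 56 arrays, on 1 of 6 naive, 0 of 17 epileptic vehicle, 1 of 18 at 3 mg/kg and 4 of 15 at 30 mg/kg. Since it was not above background on any epileptic vehicle array, no fold is given against that group. Its log2 signal spanned 6.83 to 7.11 over all mice. The gene passed the detection filter through the 30 mg/kg group, which held 4 of its 6 detections, so a higher value there is a description of that choice. The fit gave 0.08 for 30 against 3 mg/kg (SE 0.023, adjusted p = 0.0367), 1 of 7 genes called where 2.17% of all genes were (0.92% higher, 1.25% lower), and nothing is read from it. The call was lost when any one of 11 of the 33 mice of the 2 groups was left out (adjusted p 0.05 to 0.072).

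Among the lecticans, Bcan (brevican, a lectican of the adult perisynaptic matrix made by astrocytes, oligodendrocyte precursors and neurons) had 2 measured probes. On the probe that stands for the gene, log2 signal was 9.11, 9.18 and 9.29 (lowest, median, highest) in naive mice. It was 8.55, 8.98 and 9.36 in epileptic vehicle, 8.47, 8.95 and 9.15 at 3 mg/kg, and 8.72, 8.8 and 8.94 at 30 mg/kg. In epileptic vehicle 14 of 17 mice were below the lowest naive mouse and 1 was above the highest, and at 30 mg/kg all 15 mice were below every naive mouse and below the vehicle median.

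Bcan was -0.22 in epilepsy (SE 0.071, adjusted p = 0.00798) and a further -0.16 at 30 mg/kg against epileptic vehicle (SE 0.053, adjusted p = 0.0194). The lower dose against vehicle gave -0.03 (adjusted p = 0.647). Against naive mice it was -0.38 at 30 mg/kg (adjusted p = 5.35e-05), the only gene called of 7 where 30.7% of all genes were called (13.1% higher, 17.5% lower) and 5.5% had groups that did not overlap. It was -0.26 at 3 mg/kg (adjusted p = 0.00483), again 1 of 7, where 26.3% were called (11.5% higher, 14.8% lower). There 15 of 18 mice were below the lowest naive mouse, so the groups overlapped, as they did for all but 3.56% of genes.

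The second Bcan probe gave another answer for epilepsy and the same one for the drug. Its log2 signal was 8.4, 8.57 and 8.82 (lowest, median and highest) in naive mice, 8.31, 8.61 and 8.96 in epileptic vehicle, 7.98, 8.56 and 8.82 at 3 mg/kg and 8.15, 8.32 and 8.71 at 30 mg/kg. In a fit over all probes it differed by 0.02 in epilepsy (adjusted p = 0.85), with overlapping groups, and fell by 0.28 at 30 mg/kg (adjusted p = 0.00011). At 3 mg/kg against naive mice it was -0.08 (adjusted p = 0.506), and the mean of both probes -0.17 (adjusted p = 0.058). The lower Bcan signal in epilepsy and at 3 mg/kg against naive mice therefore rests on 1 of 2 probes, whereas the fall at 30 mg/kg was called on both. Within the earlier and later runs the first probe gave -0.31 and -0.08 in epilepsy and -0.07 (2 treated mice) and -0.26 at 30 mg/kg.

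Of 5 measured markers of oligodendrocyte precursors, which make brevican, 3 fell in epilepsy (Pdgfra, Cspg4 and Gpr17). Over all genes, 26.5% fell in epilepsy, and 15.7% at 30 mg/kg and 16.9% at 3 mg/kg against epileptic vehicle. Against epileptic vehicle 1 of the 5 fell at 30 mg/kg and 0 at 3 mg/kg in the limma fit, where Pdgfra was 0.1 (unadjusted p = 0.0313, adjusted p = 0.0788). That 1 was Pdgfra, a receptor that marks these cells, which fell by 0.32 in epilepsy and by a further 0.24 at 30 mg/kg. The mean level of the list ran from 8.97 to 9.15 in naive mice, 8.67 to 9.1 in epileptic vehicle, 8.36 to 9.22 at 3 mg/kg and 8.44 to 9.07 at 30 mg/kg. Their part in the Bcan result was not tested. The genes most like Bcan from mouse to mouse were Gldc (r = 0.78), the glycine cleavage enzyme of astrocytes, Cldn10 (0.69) and Cmtm5 (0.67), and without the 2 mice that stood apart these r values were 0.65, 0.47 and 0.49 over 54 mice.

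Ncan (neurocan, a lectican of developing and injured brain) did not pass the test in any of the 6 comparisons. Its log2 signal was 8.86, 9.08 and 9.24 in naive mice, 8.38, 8.9 and 9.56 in epileptic vehicle, 8.63, 8.92 and 9.55 at 3 mg/kg and 8.55, 8.79 and 9.21 at 30 mg/kg. The epileptic mice thus spread to both sides of the naive range, with 7 of 17 below it and 2 above it in the vehicle group. The difference in epilepsy was -0.14 (95% interval -0.36 to 0.09) and at 30 mg/kg against vehicle -0.08 (-0.25 to 0.09). Within the earlier and later runs these were -0.01 and -0.29 in epilepsy, and -0.25 (2 treated mice) and 0 at 30 mg/kg.

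Acan (aggrecan, the lectican that most closely defines nets) was detected on 18 of 56 arrays, 3 of 6 naive, 5 of 17 epileptic vehicle, 7 of 18 at 3 mg/kg and 3 of 15 at 30 mg/kg. Its log2 signal was 6.89, 7.06 and 7.1 in naive mice, 6.93, 7.01 and 7.54 in epileptic vehicle, 6.91, 7.02 and 7.68 at 3 mg/kg and 6.91, 6.99 and 7.13 at 30 mg/kg. No comparison called it, and in epilepsy the interval ran from -0.13 to 0.13. A probe this close to background limits what could be seen, and the same holds for Vcan and Tnr, whose undetected probes spanned 6.68 to 6.95 and 6.74 to 7.04.

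Each lectican gene lies next to a link protein gene in the mouse genome, with no other protein-coding gene between them (Acan and Hapln3, Bcan and Hapln2, Ncan and Hapln4, Vcan and Hapln1). Acan and Hapln3 were called in none of the 6 comparisons, and Vcan was not measured. In the other pairs Hapln4 fell in epilepsy while Ncan was not called, and over the 17 epileptic vehicle mice the 2 correlated at r = -0.41 (permutation p = 0.105, adjusted p = 0.22; Spearman rho = -0.45, permutation p = 0.0682, adjusted p = 0.286; r = -0.3 without the 2 mice farthest in Ncan; r = -0.47 and -0.41 within the runs). Bcan fell in epilepsy on 1 of its 2 measured probes and at 30 mg/kg on both. Its neighbour Hapln2, a link protein of nodes of Ranvier, differed by 0.04 in epilepsy (adjusted p = 0.707) and 0.01 at 30 mg/kg (adjusted p = 0.926).

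Tnc encodes tenascin-C, a glycoprotein of developing and injured tissue that binds lecticans and cell surface receptors. In naive mice its log2 signal was 7.2, 7.25 and 7.27 (lowest, median and highest), with an SD of 0.0257. It was 6.93, 7.36 and 9.27 in epileptic vehicle (SD 0.571), 7.04, 7.29 and 8.85 at 3 mg/kg (SD 0.449) and 7.04, 7.14 and 7.48 at 30 mg/kg (SD 0.131). The mice above the highest naive mouse numbered 10 of 17, 10 of 18 and 3 of 15 in those 3 groups, and 4 of 17, 4 of 18 and 11 of 15 were below the lowest, so Tnc varied among epileptic mice more than it differed between groups. Its probe was detected on all 6 naive arrays and on 14 of 17, 15 of 18 and 13 of 15 in those groups. The lowest values were therefore near background.

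No comparison called Tnc. In epilepsy it was 0.25 (95% interval -0.13 to 0.64, adjusted p = 0.282), and at 30 mg/kg against epileptic vehicle -0.31 (-0.59 to -0.02, unadjusted p = 0.0358, adjusted p = 0.0936). Without the 2 mice of highest Tnc, a setting chosen after the data were seen, these were 0.14 (adjusted p = 0.346) and -0.2 (adjusted p = 0.0942). A second measured Tnc probe gave 0.22 and -0.23, neither called, and 4 other Tnc probes were detected on at most 1 of 56 arrays. Within the earlier and later runs the Tnc difference was 0.37 and 0.04 in epilepsy. Against epileptic vehicle it was -0.49 (2 treated mice) and -0.08 at 30 mg/kg, and -0.25 and 0.22 at 3 mg/kg. Of the 15 mice at 30 mg/kg, 13 were in the later run, so dose and run are not fully separate here.

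The high Tnc signal was that of a few mice. The vehicle mouse at 9.27 (replicate 6) also had the highest Ncan (9.56), Sdc4 (9.3) and Cd44 (10.25) of all 56 mice and the second highest Acan (7.54), while its Bcan (8.55) ranked 55 of 56. The 3 mg/kg mouse at 8.85 (replicate 18) had the highest Acan (7.68), the second highest Ncan (9.55) and Cd44 (9.49), and the lowest Bcan (8.47). These are the 2 mice that stood apart over all probes.

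**Figure D3:**
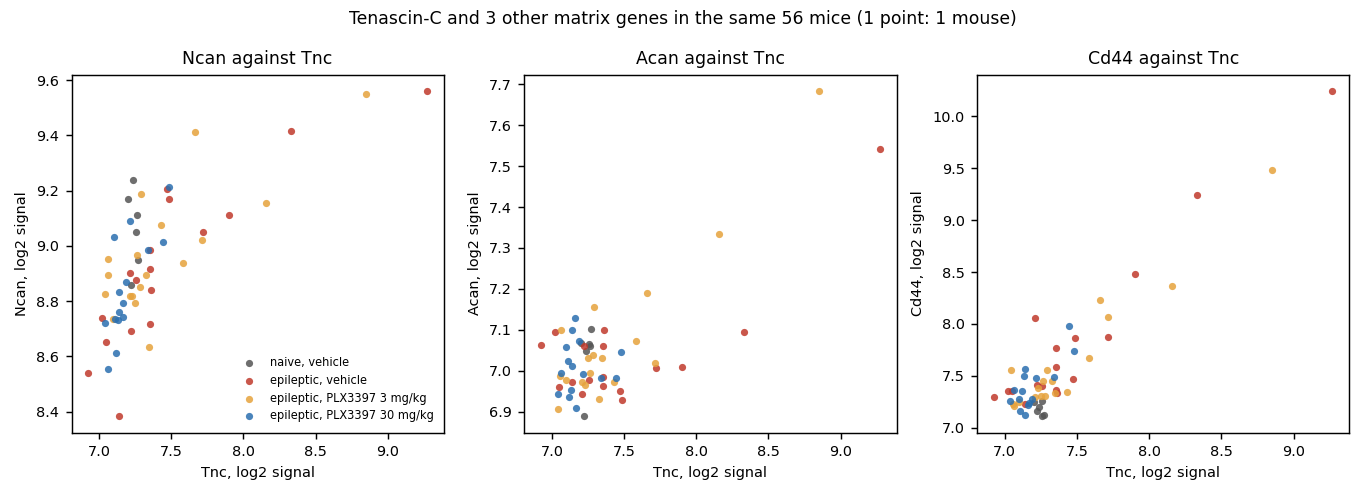
Log2 signal of Ncan, Acan and Cd44 (vertical axes) against that of Tnc (horizontal axis) in the 56 mice, coloured by group. Ncan and Cd44 climb with Tnc over the whole range, whereas Acan is above 7.2 in only 3 mice, all with Tnc above 8.

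Among the 17 epileptic mice given vehicle, all 21 pairs of the 7 genes were correlated. Only Ncan and Tnc passed after adjustment over the 21 pairs, with Pearson r = 0.85 (permutation p = 1e-05, the smallest that 100000 resamples can give, adjusted p = 0.00021) and Spearman rho = 0.87 (permutation p = 5e-05, adjusted p = 0.00105). Without the 2 mice farthest from the median in Ncan r was 0.87, and within the earlier (n = 11) and later run (n = 6) it was 0.89 in each. In the treated groups r was 0.76 at either dose (rho 0.6 at 3 and 0.73 at 30 mg/kg).

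The pair Acan and Tnc had r = 0.76 in the same mice (permutation p = 0.0184, adjusted p = 0.129), but rho was 0.17 (permutation p = 0.511, adjusted p = 0.818), r fell to 0.15 without the 2 mice farthest in Acan, and the runs gave 0.82 and -0.53, so in vehicle mice the relation rested on those mice. In the treated groups r was 0.9 and rho 0.58 at 3 mg/kg, and 0.08 and 0.11 at 30 mg/kg. Bcan ran opposite to Acan (r = -0.63, permutation p = 0.008, adjusted p = 0.084; rho = -0.53, permutation p = 0.0293, adjusted p = 0.174; -0.35 without the 2 farthest mice; -0.64 and -0.37 within runs), which did not pass. All values of a mouse come from 1 array and share its normalisation.

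The genes most like Tnc from mouse to mouse were Cd44, a hyaluronan receptor (r = 0.94), Tnfrsf12a, the receptor of the cytokine TWEAK (0.93), and Hbegf, a growth factor of the EGF family (0.91). Without the 2 mice these stayed at 0.86, 0.85 and 0.81 over 54 mice. Those most like Ncan were Tmem253, Vgf, a secreted neuropeptide precursor, and Gldn, gliomedin (0.81 each, and 0.76, 0.74 and 0.73 without the 2 mice). Those most like Acan were Tubb6, a tubulin, Socs3, an inhibitor of cytokine signalling, and Stk32b (0.86, 0.84 and 0.82), which dropped to 0.48, 0.42 and 0.43 without them.

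Sdc4 encodes syndecan-4, a heparan sulfate proteoglycan of the cell surface that binds tenascin-C and other matrix proteins. Its log2 signal was 8.05, 8.5 and 8.7 (lowest, median and highest) in naive mice, 8.29, 8.96 and 9.3 in epileptic vehicle, 7.9, 8.69 and 9.17 at 3 mg/kg and 8.03, 8.54 and 8.8 at 30 mg/kg. In epileptic vehicle 16 of 17 mice were above the highest naive mouse, against 8 of 18 at 3 mg/kg and 2 of 15 at 30 mg/kg, where all 15 lay below the vehicle median. Sdc4 was 0.47 higher in epilepsy (SE 0.126, adjusted p = 0.00157), 1.38-fold, and fell by 0.39 at 30 mg/kg (SE 0.094, adjusted p = 0.000915).

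The 3 mg/kg group differed in Sdc4 by -0.23 from vehicle (SE 0.09, adjusted p = 0.0421), a call that was lost when any one of 18 of the 35 mice was left out (adjusted p 0.05 to 0.0907). The difference between the doses was -0.16 (95% interval -0.35 to 0.02, adjusted p = 0.377). Sdc4 at 30 mg/kg was 0.08 above naive mice (-0.18 to 0.33, adjusted p = 0.7). Within the earlier and later runs the 3 mg/kg difference was -0.32 and -0.09. The genes most like Sdc4 were Plekhf1, Fbxo28 and Sys1, at r = 0.64, 0.63 and 0.58.

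Some astrocyte markers moved the same way as Sdc4, while the rest were not called. Among all genes, 22.6% rose in epilepsy, and 15.7% fell at 30 mg/kg and 16.9% at 3 mg/kg against epileptic vehicle. Of 9 astrocyte markers measured, 5 rose in epilepsy (Gfap, Vim, Aqp4 and Aldh1l1 among them) and 4 were not called. With the higher dose, 4 fell against epileptic vehicle and 5 were not called. The lower dose gave a fall of 3, with 6 not called. The mean level of the list ran from 9.47 to 9.66 in naive mice, 9.83 to 10.75 in epileptic vehicle, 9.7 to 10.51 at 3 mg/kg and 9.6 to 10.36 at 30 mg/kg. All 7 measured microglial markers rose in epilepsy and fell at both doses, with list means of 8.19 to 8.37 in naive mice, 8.86 to 9.91 in epileptic vehicle, 8.59 to 9.31 at 3 mg/kg and 8.1 to 8.91 at 30 mg/kg. The part of either cell type in the Sdc4 result was not tested.

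The partners of these genes were followed in further lists. Over all genes, 22.6% were higher and 26.5% lower in epilepsy. Against epileptic vehicle 16.3% were higher and 15.7% lower at 30 mg/kg, and 18.5% and 16.9% at 3 mg/kg. The counts in the lists that follow stand beside these shares, and no list was tested as a set. Among receptors and ligands of the net, 3 of 12 measured genes were higher in epilepsy and 4 lower (median difference -0.08, all genes -0.005). The heparin-binding cytokines Mdk (midkine) and Ptn (pleiotrophin), ligands of Ptprz1 and of syndecans, rose by 0.71 (adjusted p = 5.79e-07) and 0.48 (adjusted p = 4.59e-07). Ptprs, the receptor phosphatase that binds chondroitin sulfate, fell by 0.51 (adjusted p = 1.07e-09) and Nptx1, a neuronal pentraxin, by 0.28 (adjusted p = 0.000963). The log2 signal of Ptprs was 12.78 to 12.94 in naive and 12.15 to 12.79 in epileptic vehicle mice, which meet only at the edge. Mdk ran from 9.34 to 9.87 in naive and from 9.92 to 10.82 in epileptic vehicle mice, without overlap, a separation that 15.1% of all genes showed.

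With 30 mg/kg against vehicle, 1 of the 12 was higher (Cntn1, a cell adhesion protein of neurons, 0.2, adjusted p = 0.0179) and 3 were lower, among them Mdk (-0.29, adjusted p = 0.00656) and Ptn (-0.19, adjusted p = 0.00853), with a list median of 0.04 beside 0.004 for all genes. With 3 mg/kg 4 were higher and 1 lower, with a median of 0.13. Ptprs rose at 3 mg/kg (0.23, adjusted p = 3.3e-05) and was 0.07 at 30 mg/kg (adjusted p = 0.222).

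Of 12 proteases that cut lecticans and their inhibitors, 2 were higher and 1 lower in epilepsy (median -0.01). All 3 were tissue inhibitors of metalloproteinases: Timp1 (1.04, adjusted p = 0.0175, with its probe detected on 1 of 6 naive and all 17 vehicle arrays), Timp4 (0.64, adjusted p = 5.87e-06) and Timp2 (-0.56, adjusted p = 3.45e-05). Timp1 passed the filter of 6 arrays through the epileptic groups, so a higher value there is a description of that choice. Nothing is read from its call. Its log2 signal in epileptic vehicle had a median of 7.68 and reached 11.07 in the highest mouse. The proteases themselves, with Adamts4 at -0.23 (adjusted p = 0.137) and Mmp9 at -0.03 (adjusted p = 0.552), were not called. Some protease probes were near background: on the 17 vehicle arrays Adamts8 and Adamts1 were each detected on 2 and Plat on 3. Adamts5 and Mmp3 were not detected and Adamts9 had no named probe, so a change in these genes could have been missed. Timp4 was 8.67 to 9.1 in naive mice, 8.97 to 10 in epileptic vehicle, 8.35 to 9.43 at 3 mg/kg and 8.56 to 9.39 at 30 mg/kg. It was -0.47 at 30 mg/kg (adjusted p = 2.89e-05) and -0.5 at 3 mg/kg (adjusted p = 2.35e-06), the only one of the 12 lower at either dose. Timp2 rose at 3 mg/kg (0.44, adjusted p = 1.7e-05) and was 0.16 at 30 mg/kg (adjusted p = 0.153).

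Of 4 measured hyaluronan receptors and hyaluronidases, Cd44 rose in epilepsy (0.66, adjusted p = 0.0319) and Cemip2, which cuts hyaluronan, fell (-0.25, adjusted p = 0.0279). Cd44 was 7.11, 7.18 and 7.25 in naive mice and 7.23, 7.47 and 10.25 in epileptic vehicle, where 16 of 17 were above every naive mouse. Cd44 at 30 mg/kg was -0.44 against vehicle (adjusted p = 0.0784). None of 3 measured genes among the other link proteins and the hyaluronan synthases (Hapln2, Hapln3 and Has1) was called in any of the 6 limma comparisons, and 0 of the 3 had an unadjusted p under 0.05 (lowest 0.126, Has1 at 30 mg/kg against epileptic vehicle).

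Chondroitin sulfate synthesis and sulfation was measured through 14 enzymes, of which 1 was higher in epilepsy (the sulfotransferase Chst7, 0.24, adjusted p = 0.00783) and 1 lower (Chst12, -0.22, adjusted p = 0.000317), with a median of -0.02. Both enzymes called at 30 mg/kg were lower: B4galt7, which adds the second sugar of the linkage, at -0.12 (adjusted p = 0.00665) and Csgalnact2, which starts the chain, at -0.05 (adjusted p = 0.0337). They were also the 2 lower of the 14 at 3 mg/kg, at -0.15 (adjusted p = 0.000204) and -0.05 (adjusted p = 0.0194), where Chst12 was the 1 higher (0.1, adjusted p = 0.0219). Csgalnact2 was near background, detected on 1 of 6 naive, 7 of 17 vehicle, 2 of 18 and 1 of 15 arrays, so these sizes are uncertain. It passed the filter of 6 arrays through the vehicle group, so a lower value at either dose is a description of that choice. Nothing is read from its calls.

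Of 17 other proteoglycans 4 were higher and 7 lower in epilepsy (median -0.07). The testicans Spock1 (-0.88, adjusted p = 4.62e-12) and Spock2 (-0.49, adjusted p = 9.11e-11), secreted proteoglycans of neurons, fell, and Bgn (biglycan) rose by 1.29 (adjusted p = 0.000294). Spock1 spanned 8.44 to 8.71 in naive mice, 7.31 to 8 in epileptic vehicle, 7.78 to 8.24 at 3 mg/kg and 7.67 to 8.44 at 30 mg/kg, so all treated mice were below the lowest naive mouse, and 10 of 18 and 7 of 15 were above the highest vehicle mouse. Of all genes, 15.1% were as separate from naive mice in epileptic vehicle, 3.56% at 3 mg/kg and 5.5% at 30 mg/kg. Spock1 and Spock2 were the only 2 of the 17 called at 30 mg/kg, at 0.36 (adjusted p = 2.87e-05) and 0.29 (adjusted p = 3.15e-07), while Bgn was 0.02 (adjusted p = 0.968). With 3 mg/kg they rose by 0.36 (adjusted p = 6.35e-06) and 0.27 (adjusted p = 2.27e-07), among 4 of 17 that were higher. Markers of fibroblasts and mural cells, which make biglycan, moved in part with Bgn: 3 of 7 rose in epilepsy (Dcn, Lum and Tagln) and 4 were not called. Dcn and Lum are also among the 17 other proteoglycans. Tagln was near background, detected on 2 of 6 naive and 8 of 17 vehicle arrays. The list mean ran from 8.29 to 8.79 in naive mice and 8.31 to 8.91 in epileptic vehicle. Their part in the Bgn result was not tested.

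**Figure D4:**
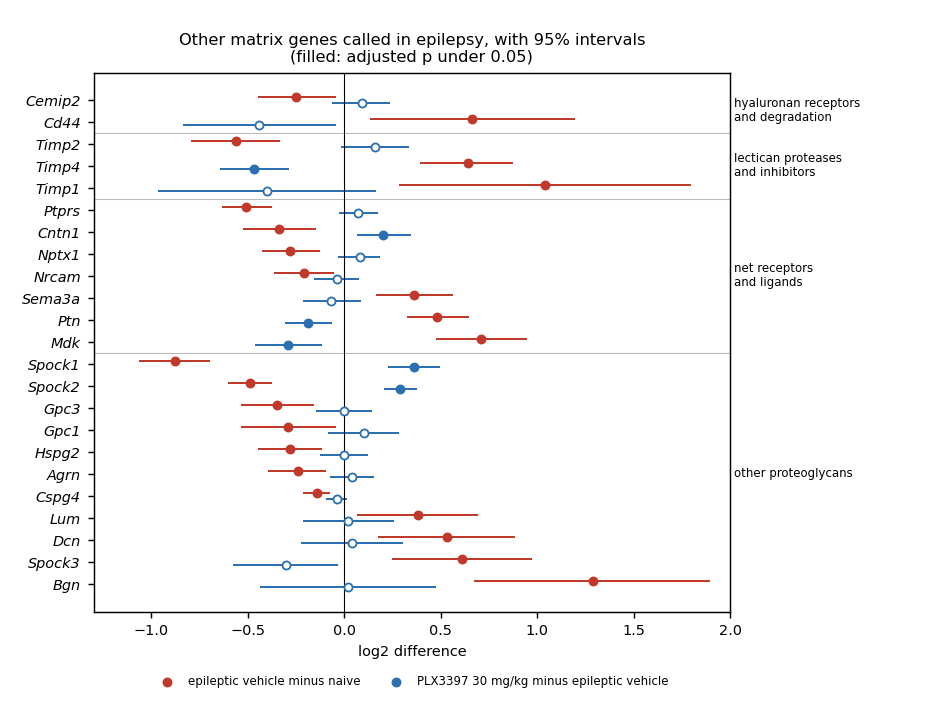
Log2 difference with 95% confidence interval (horizontal axis) of the 23 other matrix genes called in epilepsy from 4 lists, for epileptic vehicle minus naive (red) and 30 mg/kg minus epileptic vehicle (blue), filled where adjusted p was under 0.05. Timp4, Cntn1, Ptn, Mdk, Spock1 and Spock2 are the 6 called in both, each with the drug on the other side of 0. Both differences share the epileptic vehicle mice, so their sides are not independent of each other.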

How the data were processed

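The authors hybridised hippocampal RNA to Illumina MouseRef-8 v2 arrays and deposited probe intensity values and a detection p-value for each array, exported without normalisation from GenomeStudio 2011.1. The deposited series table holds log2 values, which the submitters' notes tie to lumi. They matched quantile-normalised log2 values of the deposited intensities within 0.0437 on all 56 arrays and served as an alternative.

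Here the intensities were quantile-normalised and log2-transformed without background correction. Detection at p under 0.05 on 6 or more arrays left 14058 of 25697 probes (13265 assigned to 1 gene), and each gene was read from its brightest probe on average. Groups were compared by limma 3.58.1 in R 4.3.3 with Benjamini-Hochberg adjustment over 9893 genes. The fit was tested on simulated data. Correlations between genes used 100000 permutations of the mice. Each array is 1 mouse, and the number of arrays limits precision. Gene names came from the platform annotation, updated through RefSeq (GRCm38.p6).

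The genes and all lists were chosen with earlier results of these data known. Named were every member, up to 4 genes of smallest p per other matrix list and comparison, up to 4 markers per cell type and the 3 genes most like each member. Cspg4, Dcn and Lum stand in a matrix and a marker list. Named outside this rule, after their values were seen, were Adamts4, Mmp9, Has1, Hapln2, Hapln3, Pvalb and the undetected members' probes.

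Replicate numbers did not pair the mice: over 65 pairs of the same number in 2 groups, deviations from the group means correlated at a median of 0.05. Alternatives were median scaling, the log2 values of the authors, background correction by normexp, a stricter or no detection filter, the mean of a gene's probes, array weights, 3 blocks (set of 8 sample numbers, run, replicate number), fits of 2 groups, a trended robust variance and leaving out each naive mouse. After the data were seen, leaving out each epileptic mouse, both mice of highest Tnc, and the second Bcan probe were added.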

Additional observations from a re-analysis of the deposited data

Results flagged for a closer look

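Acan in naive replicate 3 was 6.89 on the log2 scale, below the other 5 naive mice, the nearest of which was at 7.05. The gap was 0.75 of the group's range, beyond Dixon's 95% limit for 6 samples. Chance alone flags about 1 in 20 groups of this size, and the probe was near background. Without this mouse the Acan difference in epilepsy was -0.03 (adjusted p = 0.786).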

How the results depend on the processing

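The 3 genes called in epilepsy (Hapln4, Bcan, Sdc4) and at 30 mg/kg against epileptic vehicle were 3 in number in every leave-one-out refit (23 and 32 refits). Without both mice that stood apart, the same genes were called in all 6 comparisons, a check chosen after seeing the data. The replicate block gave 3, 3, 2, 0, 1 and 1 calls in the 6 comparisons, so it changed only that of the 2 doses. Against vehicle at 3 mg/kg the count was 1 (Hapln4) with median scaling, without a detection filter, with the set or run block and with 2 groups alone, and 1 to 3 leaving out single mice. For 30 against 3 mg/kg it was 0 with the stricter filter, the set, run and replicate blocks and 2 groups alone, and 0 to 1 leaving out single mice. Against naive at 30 mg/kg it was 2 (Bcan, Ncan) with median scaling, array weights and 2 groups alone, and 1 in every leave-one-out refit. Against naive at 3 mg/kg it was 0 with the mean of probes or the other Bcan probe, 2 with array weights (Bcan, Hapln1) and the set block (Bcan, Hapln4), and 1 to 2 leaving out single mice, 2 without naive replicate 3. With median scaling 3 pairs of genes (Ncan with Tnc, Ncan with Sdc4, Tnc with Sdc4) correlated in place of 1. The cause was not tested. In epilepsy Sdc4 was 0.3 (adjusted p = 0.0744) and Ncan -0.33 (adjusted p = 0.0299) with median scaling, and Bcan -0.1 (adjusted p = 0.227) with the mean of probes. Bcan at 30 mg/kg was -0.09 (adjusted p = 0.241) with median scaling.

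Differences that changed sign, none of them called under the other setting, were these. Acan in epilepsy was -0.01 with normexp, -0.02 with array weights and -0.03 without naive replicate 3 or without both mice of highest Tnc. Hapln1, not above background on any vehicle array, was 0.01 in epilepsy with the set block, a sign with no meaning at that level, and Bcan 0.02 with its other probe. Against vehicle at 3 mg/kg Bcan was 0.08 with median scaling and Acan 0 with the replicate block. Between the doses Hapln4 was 0 with array weights, 0.17 with the set block, 0.03 with the run block and 0.01 without both mice of highest Tnc. Against naive at 30 mg/kg Sdc4 was -0.03 with median scaling and -0.01 without naive replicate 5 (up to 0.12 leaving out other naive mice), Tnc 0.07 with the replicate block and Hapln1 -0.01 without naive replicate 3. Against naive at 3 mg/kg Acan was -0.01 with array weights. Acan and Hapln1 lie near background, which limits what these arrays could show of them.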
